A study of Caenorhabditis elegans with 6 samples.

Results

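The fbxa genes are a large family of F-box genes of the nematode Caenorhabditis elegans. They were taken as all rows of the count tables whose name is fbxa followed by a number, which gave 192 of 41573 gene rows. An F-box protein carries a short motif that binds a Skp1-related adaptor, in worms one of the SKR proteins, and so becomes the substrate-binding part of an SCF (Skp1, cullin, F-box) ubiquitin ligase, which marks chosen proteins for destruction. The fbxa proteins typically join the F-box to a domain shared with the germline sex determination protein FOG-2. The family is far larger in C. elegans than in most animals, its genes often lie side by side in tandem groups, and most of its members have not been studied one by one.

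RNA was sequenced from the whole body of synchronized larvae, in 3 libraries of the strain hs::lin-29 and 3 of the strain hs::control. Larvae of both strains were raised at 20 °C on Escherichia coli OP50, exposed as L3 larvae, 28 h after feeding, to 37 °C for 30 min, and collected 1 h after that heat shock, so the series has no unheated larvae. The heat shock served to induce lin-29, a zinc finger transcription factor gene of the heterochronic pathway that times the change from larval to adult skin, earlier than normal. The labels name the strains as hs::lin-29 and hs::control and give no further genotype, and they do not say in which tissues the induced gene was active. Replicates are called trials, with no word on separate cultures, so a p-value below measures no more than how these libraries vary, and that variation may be technical.

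Between 14553652 and 17303509 counts per library were assigned to genes. lin-29 stood at 133, 494 and 336 CPM (counts scaled to the gene total of the library) in hs::lin-29, against 46.9, 46.2 and 47.5 CPM in hs::control. It rose 7.08-fold (adjusted p 0.00462 by edgeR, log2 fold change 2.82, SE 0.41), counts from an induced copy and from the endogenous gene cannot be told apart, and without a filter on low counts its adjusted p was 0.102. Of 13045 genes tested, 861 or 6.60% passed edgeR's quasi-likelihood test at a Benjamini-Hochberg adjusted p of 0.05, 321 (2.46%) higher and 540 (4.14%) lower in hs::lin-29. Genes higher numbered 210 without hs::lin-29 replicate 3 and 162 and 135 without hs::control replicates 2 and 3, and genes lower 352 and 337 without hs::lin-29 replicates 2 and 3 and 328 and 324 without hs::control replicates 2 and 3.

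Of the 192 fbxa genes, 110 had enough counts to be tested, 60 had some counts but too few, and 22 are listed at 0 in every library. Among the 110 tested, 21 fell in hs::lin-29, 1 rose and 88 did not pass. The 21 that fell are 19.1% of the members tested, beside 4.14% of all genes tested that fell, and the 1 that rose is 0.909% of them, beside 2.46% of all genes. The count of members that fell was 13 without hs::lin-29 replicate 2 and ran from 14 to 20 when each other library was left out. It was 17 without hs::control replicate 1, which lay far from the rest along principal component 2 (45.7, against -21.4 and -17.7 for the other hs::control libraries). Whole larvae were measured, so fewer cells of a type and less RNA per cell cannot be told apart in any of these values. Of the 110, 93 reached the minimum level of the filter in all 6 libraries, and 3 (fbxa-84, fbxa-162 and fbxa-176, all of which fell) reached it in the 3 hs::control libraries alone, so the share is a description of the members that could be tested and not of the whole family.

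Summed over all 192 genes, the family held 693, 635 and 655 CPM in hs::lin-29, against 798, 863 and 747 CPM in hs::control, a mean of 661 ± 29.3 CPM in hs::lin-29 and 803 ± 58.1 CPM in hs::control (SD, n = 3 each). Every hs::lin-29 library lay below every hs::control library. This difference was not tested, and the sum includes the 21 genes that fell. The 21 genes that fell, chosen by this same comparison, held 106, 113 and 110 CPM in hs::lin-29, against 226, 264 and 224 CPM in hs::control. The 88 tested genes that did not pass held 574, 512 and 533 CPM in hs::lin-29, against 562, 586 and 510 CPM in hs::control, and here the strains overlapped. These too were chosen by this same comparison, so the overlap of their sum is a description only. The 82 genes that were not tested added 7.76 to 10.1 CPM per hs::lin-29 library and 8.80 to 11.2 CPM per hs::control library.

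**Figure D1:**
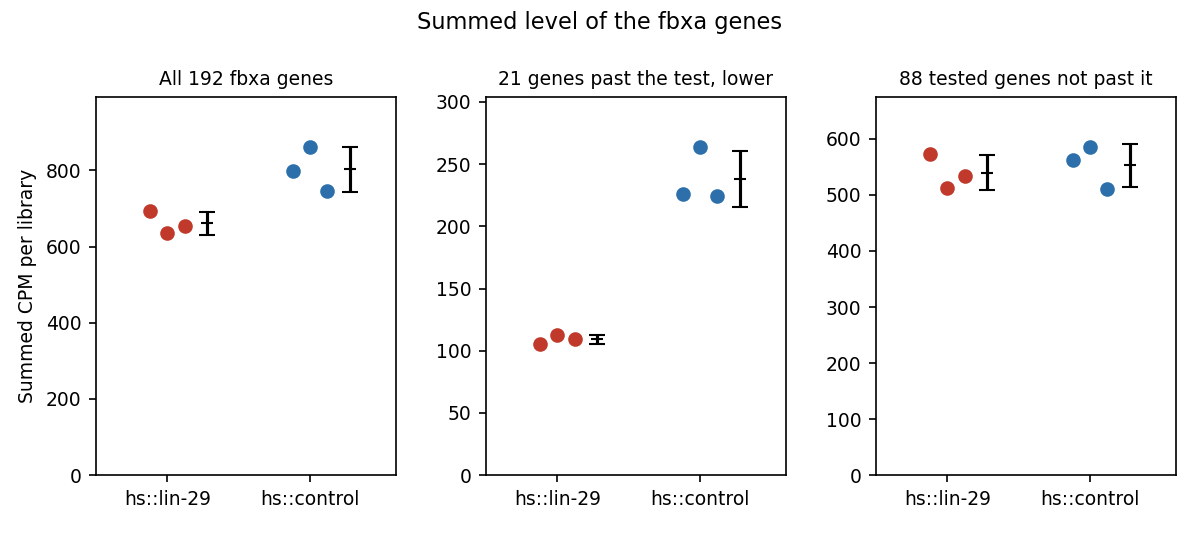
Summed CPM per library for all 192 fbxa genes, for the 21 that fell and for the 88 tested genes that did not pass; points are single libraries, and the bar beside them is the mean with its SD (n = 3). The 21 genes lie between 106 and 113 CPM in hs::lin-29 and between 224 and 264 CPM in hs::control. The 88 others overlap between strains. Both sets were chosen by this comparison, so the values are a description only.

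The change was spread unevenly over the family. Of the 110 tested members 64 had a log2 fold change between -0.5 and 0.5 (58.2%, beside 82.9% of all genes tested), 21 were at -1 or lower (19.1%, beside 2.74%) and 3 were at 1 or higher (2.73%, beside 2.22%). The median log2 fold change of the tested members was -0.08, close to the 0.01 of all genes tested, with quartiles at -0.74 and 0.23, against -0.18 and 0.17 for all genes. The middle of the family thus stayed near 0 while its lower quartile lay far below that of all genes. Tested members had a median level of 3.63 CPM, against 15.6 CPM for all genes tested. Log2 fold changes scatter more at low counts, and the shares and quartiles in this paragraph were not matched for level. The strains did not overlap in 46 tested members, where 23.1% of all genes tested did not. In 34 of them every hs::lin-29 library lay below every hs::control library (30.9%, beside 13.6% of all genes tested), and in the other 12 every hs::lin-29 library lay above (10.9%, beside 9.50%). All 22 members that passed are among the 46. Non-overlap of a gene that passed goes with the call, here and below, and is no further evidence.

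Of the members that fell, 5 stood above 20 CPM in every hs::control library. fbxa-60 stood at 10.01, 10.9 and 8.56 CPM in hs::lin-29, against 24.6, 25.7 and 24.8 CPM in hs::control, and fell 2.49-fold (adjusted p 0.000834 by edgeR, log2 fold change -1.31, SE 0.14). The hs::control libraries were nearly equal and the hs::lin-29 libraries all stood far below them. fbxa-14 stood at 11.7, 16.5 and 16.2 CPM in hs::lin-29, against 29.1, 40.6 and 30.6 CPM in hs::control, and fell 2.20-fold (log2 fold change -1.14, SE 0.17). Its lowest library was hs::lin-29 replicate 1 and its highest hs::control replicate 2. fbxa-6 stood at 15.5, 12.9 and 10.8 CPM in hs::lin-29, against 25.6, 23.8 and 24.9 CPM in hs::control, and fell 1.86-fold. fbxa-105 stood at 14.2, 17.7 and 16.8 CPM in hs::lin-29, against 26.0, 31.6 and 26.3 CPM in hs::control, and fell 1.68-fold. fbxa-74 stood at 14.6, 19.9 and 21.7 CPM in hs::lin-29, against 30.1, 38.4 and 28.5 CPM in hs::control, and fell 1.68-fold (adjusted p 0.037). The strains did not overlap in any of the 5, as in every member that passed. The folds of these abundant members, 1.68 to 2.49, were smaller than the largest folds among members at lower levels. At low counts only large folds can pass the test, so this order may come from the selection.

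fbxa-128 had the smallest p of the family. It stood at 3.48, 3.298 and 3.07 CPM in hs::lin-29, against 13.2, 15.9 and 13.1 CPM in hs::control, and fell 4.18-fold (adjusted p 0.000159 by edgeR, log2 fold change -2.06, SE 0.15). The spread within each strain was small beside the gap between them. fbxa-44 fell 5.15-fold, with 0.671, 1.44 and 1.08 CPM in hs::lin-29, against 5.30, 6.99 and 4.59 CPM in hs::control. fbxa-84 had the largest fold of the family, 6.70-fold lower, with 0.427, 0.275 and 0.181 CPM in hs::lin-29, against 2.62, 1.73 and 1.80 CPM in hs::control. Its hs::lin-29 values rest on 7, 4 and 3 counts, so the size of that fold is uncertain (log2 fold change -2.74, SE 0.43). fbxa-162, a pseudogene by the RefSeq annotation, fell 4.82-fold, with 0.427, 0.481 and 0.362 CPM in hs::lin-29, against 1.88, 2.49 and 1.98 CPM in hs::control. These 4 are the members that fell 4-fold or more.

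A further group fell by between 2.40-fold and 3.36-fold. fbxa-53 stood at 1.16, 0.825 and 0.844 CPM in hs::lin-29, against 3.22, 3.87 and 2.67 CPM in hs::control, and fell 3.36-fold. fbxa-99 stood at 1.95, 2.75 and 3.13 CPM in hs::lin-29, against 7.32, 9.59 and 6.80 CPM in hs::control, and fell 2.95-fold. By the annotation fbxa-99 overlaps a gene on the opposite strand, so reads of both may be mixed if counting ignored strand. fbxa-190 stood at 3.23, 2.82 and 2.89 CPM in hs::lin-29, against 6.38, 8.61 and 7.44 CPM in hs::control, and fell 2.44-fold. fbxa-51 stood at 2.62, 2.40 and 1.93 CPM in hs::lin-29, against 5.57, 6.13 and 5.40 CPM in hs::control, and fell 2.40-fold. For these 4 the adjusted p by edgeR was between 0.00285 and 0.00712, and the strains did not overlap.

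In 9 of the 21 the fall passed as reported but not under every alternative. fbxa-38 fell 2.30-fold, with 2.99, 1.86 and 3.25 CPM in hs::lin-29, against 6.11, 6.99 and 6.04 CPM in hs::control, and without hs::control replicate 2 it no longer passed (adjusted p 0.0547 by edgeR). fbxa-115 had 6.41, 6.18 and 5.79 CPM in hs::lin-29, against 11.1, 10.7 and 10.1 CPM in hs::control, and fell 1.69-fold. Its replicates were tight in both strains, yet it did not pass when hs::lin-29 replicate 2 or 3 was dropped (0.0511 and 0.0671). fbxa-219 fell 1.86-fold, with 6.89, 4.33 and 4.76 CPM in hs::lin-29, against 8.73, 11.04 and 10.6 CPM in hs::control. fbxa-76 fell 1.63-fold, with 6.53, 4.95 and 5.003 CPM in hs::lin-29, against 7.65, 9.48 and 10.3 CPM in hs::control. In both genes the highest hs::lin-29 library and the lowest hs::control library were replicate 1, and neither gene passed once replicate 2 or 3 of either strain was dropped (adjusted p up to 0.0939 and 0.161). fbxa-74, described above, did not pass once hs::lin-29 replicate 2 or any 1 of the hs::control libraries was dropped (up to 0.127).

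The remaining 4 of the 9 had low levels. fbxa-85 fell 3.01-fold, with 0.732, 1.58 and 1.57 CPM in hs::lin-29, against 2.95, 5.37 and 3.72 CPM in hs::control. fbxa-9 fell 3.26-fold, with 0.976, 0.618 and 0.422 CPM in hs::lin-29, against 3.09, 1.96 and 1.69 CPM in hs::control. The strains did not overlap in either gene, though the libraries of each strain were spread widely. fbxa-27 fell 3.54-fold, with 0.671, 0.825 and 0.844 CPM in hs::lin-29, against 4.57, 1.85 and 2.03 CPM in hs::control, where replicate 1 stood far above the other control libraries. fbxa-176 fell 3.12-fold, with 0.488, 0.206 and 0.422 CPM in hs::lin-29, against 1.21, 1.33 and 1.10 CPM in hs::control. Each of the 4 failed to pass when any library was dropped (adjusted p up to 0.121, 0.150, 0.125 and 0.162 by edgeR), except that fbxa-85 still passed without hs::control replicate 1, fbxa-9 without hs::lin-29 replicate 1 and fbxa-27 without hs::control replicate 2. Scaling to library totals or by upper quartiles ended the calls of fbxa-76 and fbxa-176, limma-voom those of fbxa-9 and fbxa-27, and DESeq2 and the fit with no filter that of fbxa-176. By the annotation fbxa-9 and fbxa-27 overlap a gene on the opposite strand. In all 15 alternatives all 21 kept a log2 fold change below 0.

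**Figure D2:**
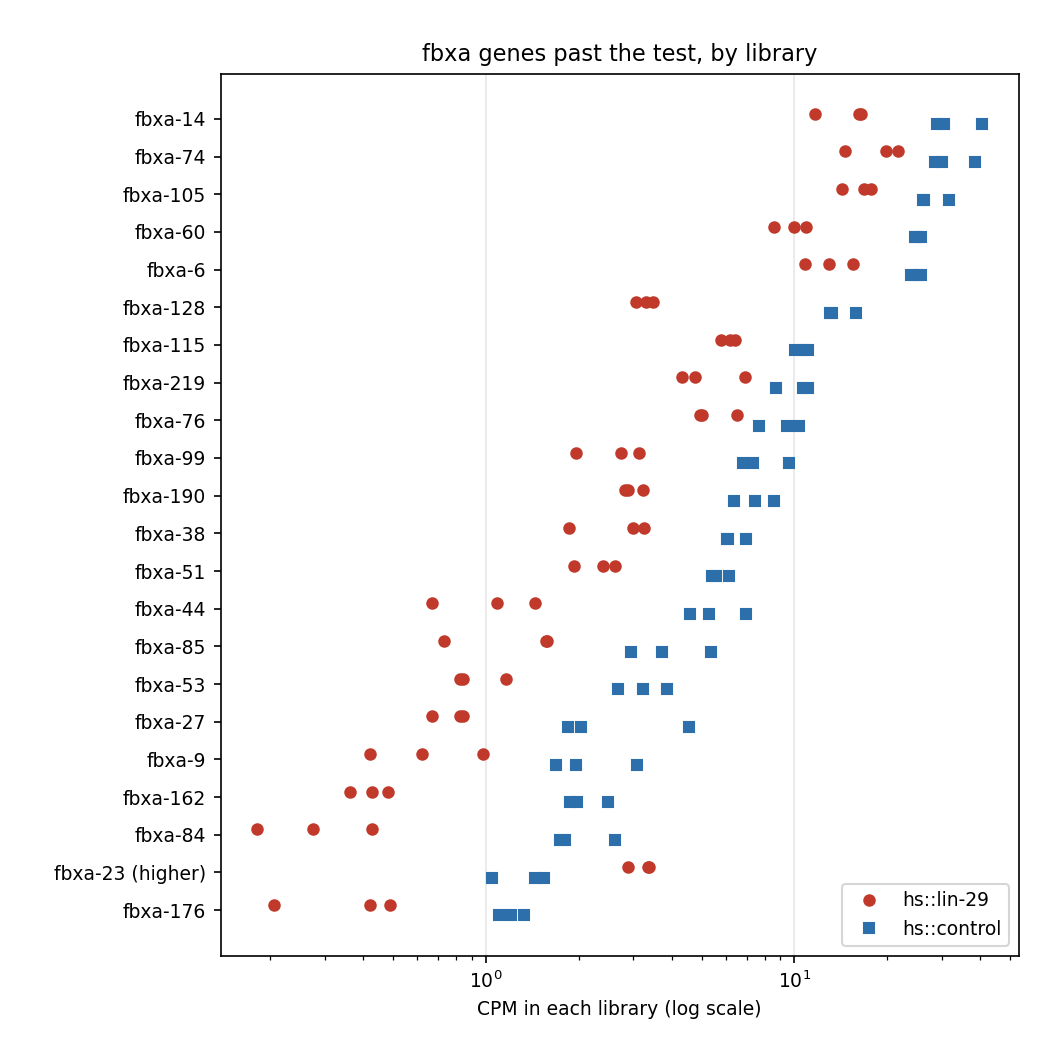
CPM of the 22 fbxa genes that passed the test, on a log scale, with 1 point per library (circles hs::lin-29, squares hs::control) and genes ordered by their mean in hs::control. In the 21 genes that fell every circle lies left of every square, and in fbxa-23 every circle lies right. This goes with passing the test and is no further evidence.

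One member rose. fbxa-23, which RefSeq annotates as a pseudogene, stood at 3.36, 2.89 and 3.38 CPM in hs::lin-29, against 1.54, 1.44 and 1.05 CPM in hs::control (adjusted p 0.022 by edgeR, log2 fold change 1.28, SE 0.27). The strains did not overlap, but the call was lost when any library other than hs::control replicate 1 was left out (adjusted p up to 0.0899). Next to it in size of evidence came fbxa-199, at 4.33, 3.298 and 3.07 CPM in hs::lin-29, against 1.88, 2.14 and 1.74 CPM in hs::control, and fbxa-88, at 3.66, 2.82 and 2.11 CPM in hs::lin-29, against 1.48, 1.16 and 1.22 CPM in hs::control. Neither passed, with adjusted p of 0.0514 and 0.0534 by edgeR. fbxa-209 had 13.9, 12.8 and 13.1 CPM in hs::lin-29, against 10.3, 9.25 and 8.95 CPM in hs::control (adjusted p 0.0722), and by the annotation it overlaps other genes on both strands. fbxa-169, fbxa-89, fbxa-36, fbxa-2 and fbxa-10, with log2 fold changes between 0.32 and 1.36, were further from the threshold (adjusted p 0.146 to 0.325). Without hs::control replicate 1, 3 members passed as higher, and without each of the other libraries none did.

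Some members below the threshold were lower in every hs::lin-29 library by amounts that varied. fbxa-189 stood at 3.17, 1.37 and 0.542 CPM in hs::lin-29, against 5.57, 6.36 and 4.59 CPM in hs::control (adjusted p 0.0756 by edgeR, log2 fold change -1.67, SE 0.47). fbxa-182 stood at 2.75, 1.31 and 0.904 CPM in hs::lin-29, against 4.23, 3.87 and 3.95 CPM in hs::control (log2 fold change -1.25, SE 0.36, adjusted p 0.082). In both genes the hs::control libraries lay close together, the hs::lin-29 libraries lay far apart, and the highest of these was replicate 1. Without hs::lin-29 replicate 1 both passed, and with all libraries both passed by DESeq2. fbxa-189 also passed by limma-voom and with a replicate block, and fbxa-182 with no filter on low counts. Among the 21 that fell, replicate 1 was the highest hs::lin-29 library in 11 and the lowest in 7. fbxa-135 stood at 1.95, 1.37 and 0.964 CPM in hs::lin-29, against 3.16, 2.66 and 3.49 CPM in hs::control (adjusted p 0.0755). fbxa-31, fbxa-66, fbxa-5, fbxa-192 and fbxa-79 had log2 fold changes between -0.82 and -0.29 and adjusted p of 0.126 to 0.195. The strains did not overlap in any of these 8. Of the 88 tested members that did not pass, 13 were lower in hs::lin-29 without overlap (14.8%, beside 10.2% of all tested genes that did not pass) and 11 were higher (12.5%, beside 7.55%).

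Levels of different genes were compared per kilobase of exon, with exon lengths of the WBcel235 annotation, which had one for 100 of the 110 tested members. The median tested member stood at 3.35 CPM per kb, against 11.8 CPM per kb for the 11220 tested genes with a length, and 15 of the 100 lay above that median. The highest were fbxa-72 and fbxa-37, at 27.03 and 27.01 CPM per kb over the 6 libraries, followed by fbxa-105 at 20.8, fbxa-59 at 19.9 and fbxa-31 at 19.8 CPM per kb. Of these fbxa-105 alone fell. fbxa-72 stood at 30.3, 28.4 and 38.9 CPM in hs::lin-29, against 37.6, 30.8 and 30.0 CPM in hs::control (log2 fold change 0.01, SE 0.16). fbxa-37 stood at 27.8, 27.1 and 28.1 CPM in hs::lin-29, against 28.4, 30.2 and 23.4 CPM in hs::control (log2 fold change 0.05, SE 0.12). Libraries of both strains were mixed in these genes. fbxa-59 had 34.5, 37.7 and 34.5 CPM in hs::lin-29, against 41.9, 42.5 and 30.7 CPM in hs::control, and fbxa-67 had 31.8, 20.8 and 18.7 CPM in hs::lin-29, against 22.5, 20.7 and 18.7 CPM in hs::control. hs::lin-29 replicate 1 was the high library of fbxa-67.

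Members that fell were found at levels from 1 CPM up, with 1 member below that. By mean CPM over the 6 libraries, 1 of 13 tested members under 1 CPM fell (0.639% of all genes at that level), 9 of 50 between 1 and 5 CPM (2.90% of all genes), 8 of 39 between 5 and 20 CPM (5.78% of all genes) and 3 of 8 at 20 CPM or more (4.50% of all genes). In each range from 1 CPM up the share of members that fell was above that of all genes at the same level. Under 1 CPM it rests on fbxa-176 alone, which reached the filter only in the hs::control libraries, so no share is read there. fbxa-84 and fbxa-162, between 1 and 5 CPM, also reached it only there. This split was chosen after the data were seen.

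**Figure D3:**
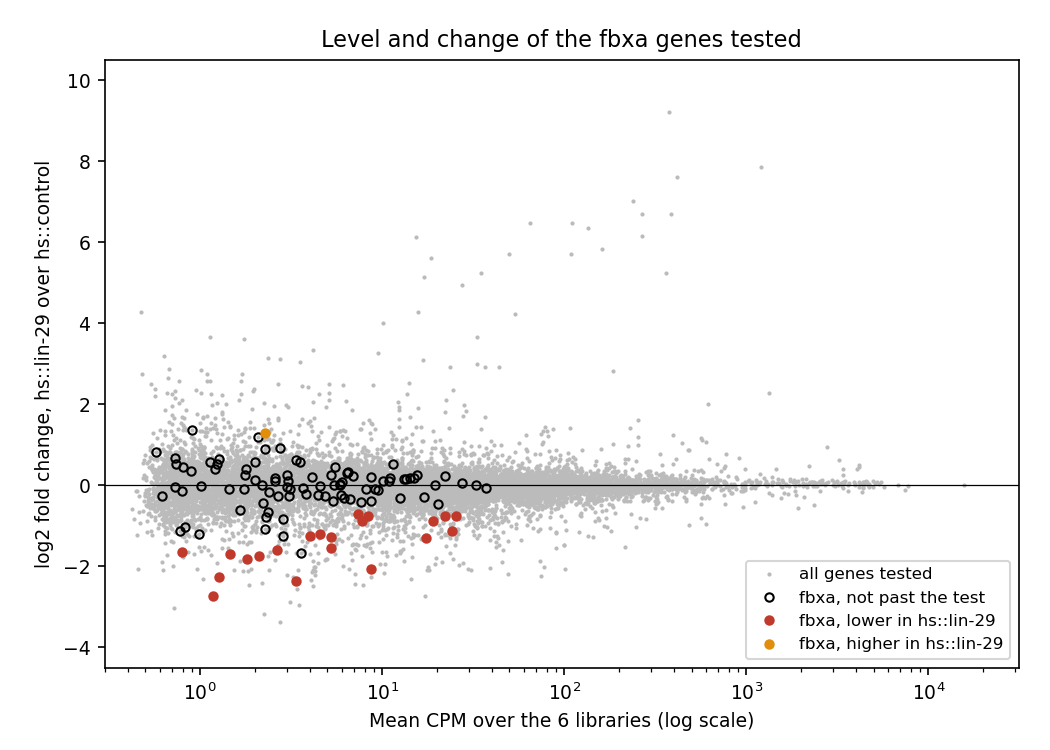
Mean CPM over the 6 libraries (log scale) against the log2 fold change of hs::lin-29 over hs::control, for all 13045 genes tested (grey) and the 110 fbxa genes tested. The 21 members that fell run from under 1 to over 20 CPM, while the 88 that did not pass (open circles) scatter around 0. The 1 that fell under 1 CPM, fbxa-176, reached the filter only in the hs::control libraries.

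By RefSeq, 170 of the 192 members are protein-coding genes and 22 pseudogenes. Of 100 protein-coding members tested 20 fell (4.27% of all protein-coding genes tested), and of 10 pseudogenes tested fbxa-162 fell and fbxa-23 rose, beside 4.98% and 1.49% of the 201 pseudogenes tested in all. fbxa-162 reached the filter only in the hs::control libraries, so no share is read from it. The members lie on all 6 chromosomes, with 75 on V and 68 on III. On chromosome III 11 of 46 tested members fell (4.41% of all genes tested there), on V 7 of 40 (5.14%), on X 2 of 7 (4.51%) and on II 1 of 10 (4.25%). The 1 on II is again fbxa-162. The few tested members on I and IV were not among the 21.

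Members that fell lay both in groups of neighbouring fbxa genes and alone. Taking as 1 stretch those fbxa genes with at most 2 other protein-coding genes or pseudogenes between them in RefSeq, the members fell into 36 stretches of 2 or more genes and 59 lone genes. Of the 21 that fell 13 lay in stretches (15.9% of 82 tested) and 8 were lone genes (28.6% of 28 tested), beside 4.14% of all genes tested. fbxa-176 and fbxa-115 were the only tested members of their stretches. Since 88 of all 110 tested members did not pass, neighbours that did not pass are common in any stretch. In 13 of the 20 stretches with at least 2 tested members, log2 fold changes lay on both sides of 0. The longest stretch, on chromosome III, held 29 fbxa genes, of which 26 were members and 18 were tested. fbxa-14, at its end, and fbxa-76 fell there. The other 16 did not pass, with log2 fold changes on both sides of 0, such as -0.42 in fbxa-19, and at most 0.90. Another, of 12 fbxa genes, held fbxa-60 and fbxa-51, which fell, and fbxa-23, which rose. On X fbxa-53 fell, while the neighbouring family member fbxa-52, named after its values were seen, stood at 3.23, 2.34 and 2.29 CPM in hs::lin-29, against 1.95, 2.54 and 3.02 CPM in hs::control.

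Of 17 tested genes directly next to the 21, 2 fell (11.8%, beside 4.14% of all genes tested), with a median log2 fold change of -0.18. Of 39 tested genes within 2 places 3 fell (7.69%), with a median of -0.08. None of the 18 fbxa genes among these 39 fell, so the 3 stood among 21 genes of other kinds (14.3%). The 3 that fell, named after their values were seen, were oac-20 beside fbxa-99 (log2 fold change -2.05, SE 0.19), C18D4.8 near fbxa-176 (-1.84, SE 0.26) and Y54F10BM.3 beside fbxa-219 (-1.41, SE 0.35). The call of Y54F10BM.3 was lost without any library but hs::control replicate 1 (adjusted p up to 0.189 by edgeR).

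**Figure D4:**
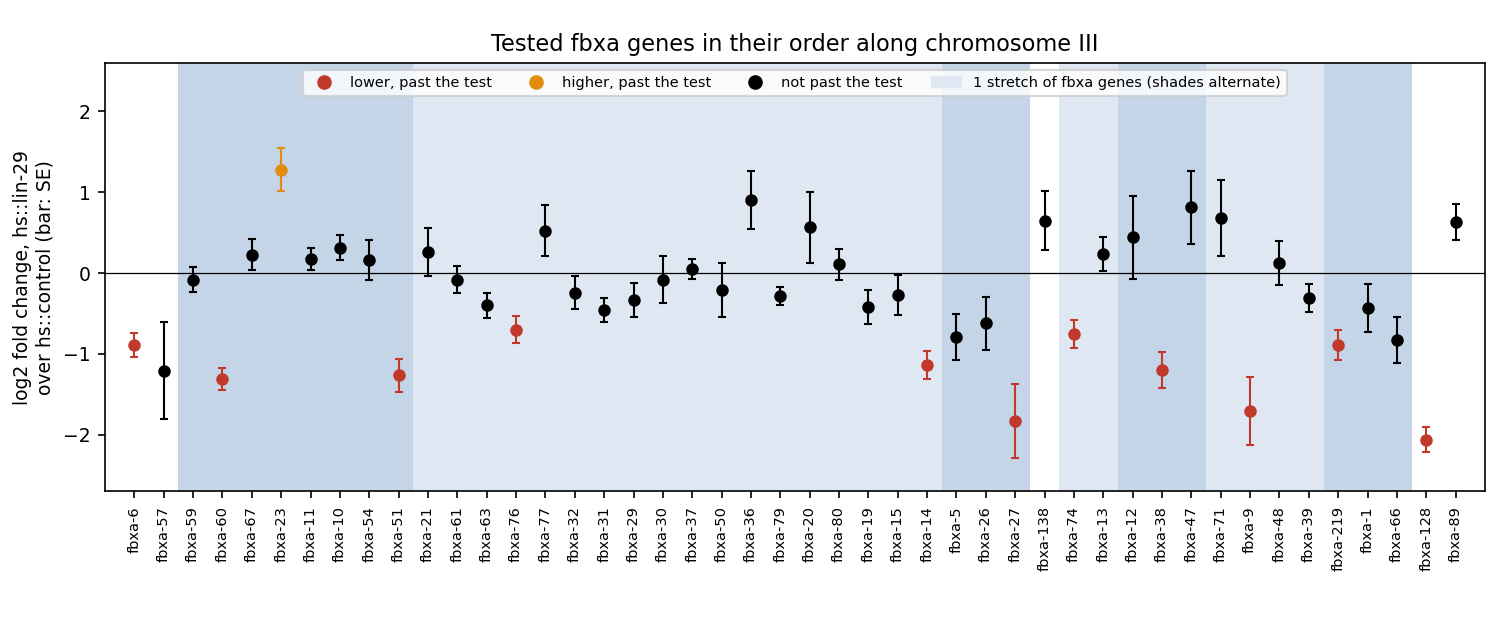
Log2 fold change of hs::lin-29 over hs::control, with its SE, for the 46 tested fbxa genes of chromosome III in their RefSeq order, spaced evenly; shaded blocks are stretches of neighbouring fbxa genes. Members that fell (red) stand among members that did not pass (black), and fbxa-23 (orange) rose 2 tested places from fbxa-60.

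A pair of members have a known role close to this experiment. FBXA-75 and FBXA-158 are F-box proteins of a cullin ligase with CUL-6 and SKR-3, SKR-4 or SKR-5 that promotes survival of heat shock and is induced in the intracellular pathogen response. fbxa-158 is listed at 0 in every library, and since genes that every cell uses are also listed at 0, no level is read from it. fbxa-75 had 3, 1 and 0 counts in hs::lin-29, against 3, 7 and 5 counts in hs::control, and was too low to test. cul-6 stood at 20.7, 19.7 and 20.1 CPM in hs::lin-29, against 32.8, 24.9 and 25.3 CPM in hs::control, and skr-4 at 8.72, 9.28 and 7.35 CPM in hs::lin-29, against 17.5, 14.9 and 11.1 CPM in hs::control. Neither gene overlapped between strains and neither passed (log2 fold changes -0.43, SE 0.16, and -0.75, SE 0.21; adjusted p 0.168 and 0.0763 by edgeR). skr-3 and skr-5 were at -0.23 (SE 0.11) and -0.47 (SE 0.56), and skr-3 did not overlap between strains either. Of all tested genes that did not pass, 10.2% were lower in hs::lin-29 without overlap.

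A wider list of 35 genes held all cullins, the SKR adaptors, and RING finger, neddylation and ubiquitin-transfer genes, so it reaches beyond the SCF ligase and includes the CUL-6 ligase genes above. Of these 22 were tested, none passed edgeR's test in either direction, 1 was higher and 3 were lower at an unadjusted p of 0.05, and DESeq2 called 1 lower and limma-voom none. edgeR also called 1 lower when hs::control replicate 1 or 3 was dropped or when low counts were not filtered. Of the parts of the SCF ligase itself, the scaffold gene cul-1 had a log2 fold change of 0.19 (SE 0.09), the adaptor genes skr-1 and skr-2 of 0.01 and 0.09 (SE 0.09 and 0.13), and the RING finger gene rbx-1 of 0.04 (SE 0.09). cul-2, skr-6, skr-9, rcs-1 and the ubiquitin-activating enzyme gene uba-1 are listed at 0 in every library, so no level is read from them. Of 12 F-box genes with their own names 11 were tested and none passed by edgeR, DESeq2 or limma-voom, with 1 higher and 1 lower at an unadjusted p of 0.05. These were skpt-1 (log2 fold change 0.44, SE 0.14) and xrep-4, an F-box gene of the electrophile stress response (-0.32, SE 0.09), and scaling to library totals alone gave 1 call.

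The other fbx families gave too few tested genes for much comparison. Of 109 fbxb genes 12 were tested and none passed by edgeR, DESeq2 or limma-voom or at an unadjusted p of 0.05, with a median log2 fold change of -0.02. Of 51 fbxc genes 17 were tested and none passed by edgeR, with a median of 0.16 and 3 higher and none lower at an unadjusted p of 0.05. DESeq2 called 1 fbxc gene higher and limma-voom none, and edgeR called 2 higher with no filter on low counts, 1 higher at 1 CPM or more in 3 libraries, 1 higher without hs::lin-29 replicate 2 and 1 lower without hs::control replicate 1. fbxc-51 came nearest, at 3.78, 1.65 and 2.23 CPM in hs::lin-29, against 0.873, 1.16 and 0.872 CPM in hs::control (adjusted p 0.0502). The difference between the families was not tested.

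The pals genes, many of which are induced together with fbxa-75 and fbxa-158 in the intracellular pathogen response, are listed under sequence names and were matched through RefSeq. hs::lin-29 replicate 1 stood apart in this group. Summed over 37 rows, the pals genes held 199, 106 and 99.1 CPM in hs::lin-29, against 136, 158.1 and 169 CPM in hs::control, and in 19 of 21 tested genes replicate 1 was the highest hs::lin-29 library. pals-33, for one, stood at 14.7, 3.71 and 1.57 CPM in hs::lin-29. The share of all tested genes with replicate 1 as the highest hs::lin-29 library was not worked out. The pattern is therefore not read as particular to the pals genes. Of the 21 tested, 3 fell (14.3%, beside 4.14% of all genes tested) and none rose by edgeR, with 4 higher and 5 lower at an unadjusted p of 0.05, and with 1 higher by DESeq2 and none by limma-voom. pals-6 stood at 5.61, 3.85 and 3.01 CPM in hs::lin-29, against 9.74, 12.4 and 17.8 CPM in hs::control (log2 fold change -1.64, SE 0.26, adjusted p 0.00696). pals-24 stood at 14.4, 13.5 and 14.6 CPM in hs::lin-29, against 28.2, 34.4 and 34.2 CPM in hs::control (log2 fold change -1.15, SE 0.10). pals-17 fell by 0.71 on the log2 scale (SE 0.13), and did not pass once replicate 2 or 3 of either strain was dropped (adjusted p up to 0.0643 by edgeR). All 3 also passed without hs::lin-29 replicate 1. None of these 3 overlapped between strains, which goes with passing the test, while the median over the 21 was 0.06. Without hs::lin-29 replicate 3, 3 pals genes passed as higher and 2 as lower.

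Tissue markers were set beside these values, and their part in the falls was not tested. Of 4 hypodermis markers tested nhr-25 rose (log2 fold change 0.58, SE 0.14, lost without any library but hs::control replicate 1, adjusted p up to 0.132), while dpy-7 and rol-6 were at -0.36 and -0.31 (SE 0.19 and 0.16) and col-12 at 0.35 (SE 0.24). Of 6 intestine markers elt-2 rose (1.43, SE 0.18), 4 others had log2 fold changes between -0.28 and -0.04, and ges-1 was at 0.05 (SE 0.15). Of the other markers, 3 of body wall muscle, 3 of neurons and 5 of germline, none passed, also at an unadjusted p of 0.05. The summed CPM of the intestine markers was 5635 to 6664 in hs::lin-29 and 6238 to 7314 in hs::control, and that of the hypodermis markers 983 to 1226 in hs::lin-29 and 1117 to 1364 in hs::control. Muscle markers summed to 9251 to 9789 CPM in hs::lin-29 and 9524 to 9874 in hs::control, neuron markers to 261 to 290 CPM in hs::lin-29 and 229 to 268 in hs::control, and germline markers to 227 to 294 CPM in hs::lin-29 and 235 to 271 in hs::control. All 5 ranges overlapped between strains. sqt-3, unc-15, unc-119, egl-3 and pgl-1 of these lists are listed at 0 in every library.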

How the data were processed

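Each of the 6 libraries has 1 deposited table of raw read counts per gene name, without normalization. Per the submitters' processing notes the build was ce10, and the tools included STAR 2.5.2b and HTSeq 0.6.1p1 beside DESeq2 1.12.3 and bcl2fastq 2.18, with R 3.3.2. The role of each tool, the strand setting and the annotation release were not stated in the sources used here. Of all counts, 39.7% to 41.8% stood in rows that name no gene and were left out, 17.0% to 19.2% being reads with several alignments, so near-identical fbxa copies can be undercounted.

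CPM were scaled to the counts assigned to genes. With edgeR 4.0.16, genes were filtered by filterByExpr (minimum count 10, total 15), scaled by TMM and tested over the whole table with the quasi-likelihood F test (robust, two-sided, strain as the only term, Benjamini-Hochberg at 0.05); the SE is the absolute log2 fold change over the square root of F. Chi-square per degree of freedom between replicates of a strain was at least 11.4, so all were kept as separate samples. Members and lists were chosen with earlier results of these data known. Named are all members that passed, the 8 higher and 8 lower with the smallest p that did not, the 6 with the highest mean CPM, fbxa-75 and fbxa-158, and the called members of the lists beside them. RefSeq and Ensembl tables (WBcel235, another build than ce10) gave gene order, chromosomes, biotypes and exon lengths, and no coordinates. All 192 members matched RefSeq by name and 169 matched Ensembl. Alternatives were other scalings, other filters, DESeq2 1.42.0, limma-voom (limma 3.58.1), a fit without robust estimation, a replicate block and each library left out. R 4.3.3, Python 3.11.15, pandas 2.3.3 and matplotlib 3.10.9 were used.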

Additional observations from a re-analysis of the deposited data

How the results depend on the processing

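Of the 21 members that fell, 12 passed under all 15 alternatives, and all 21 kept their direction. The count of members that fell was 19 to 22 under the other scalings, filters and tools, and 13 to 20 when 1 library was left out. The count that rose was 2 with no filter on low counts, 2 with DESeq2, and 0 to 3 when 1 library was left out. Leaving out 1 library gave 135 to 327 genes higher and 324 to 567 genes lower over all genes. With a replicate block 16 members fell, 15 of them among the 21, and 0 rose, with 206 genes higher and 350 lower over all genes. Trial numbers share no stated culture or day, and same-numbered libraries did not deviate together (correlations 0.01, -0.36 and 0.24), so they were not taken as pairs. The median log2 fold change of tested members ran from -0.12 to -0.03 over all alternatives. The spread of this median between replicates was 0.092 on the log2 scale, so its shifts between alternatives are not read. Directions turned only in abundant members near 0, among the results named. fbxa-72 was at -0.0099 scaled to library totals and ran from -0.13 to 0.18 with 1 library left out (-0.13 without hs::lin-29 replicate 3, -0.07 without hs::control replicate 2 or 3). With 1 library left out fbxa-67 ran from -0.022 (without hs::lin-29 replicate 1) to 0.38, fbxa-59 from -0.24 to 0.045 (without hs::control replicate 1) and fbxa-37 from -0.075 (without hs::control replicate 3) to 0.13. The cause was not tested. Depth limits the low members: 82 could not be tested, and 7 of the 21 stood under 5 CPM in hs::control.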

Other observations

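Some fbxa genes listed at 0 in every library share a feature of the annotation. Of 29 members with several annotated transcripts in the Ensembl annotation 10 (34.5%) are listed at 0 in every library, against 9 of 140 (6.43%) members with 1 transcript. Over all protein-coding genes matched by name the shares are 1391 of 5202 (26.7%) and 563 of 12163 (4.63%). A listed 0 in these tables was therefore not read as absence of the RNA. RefSeq lists 30 more fbxa genes under names that no row of the tables carries, and all 30 are pseudogenes.

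Among the 60 members with too few counts to test, no library had more than 15 counts. 35 of them had a lower and 25 a higher mean CPM in hs::lin-29 than in hs::control. Libraries did not overlap between strains in 4 of them (6.67%, beside 6.42% of all genes with counts that were not tested), a share near that of all such genes. Of the 4, 3 were lower in hs::lin-29, namely fbxa-75, fbxa-170 (6, 3 and 6 counts in hs::lin-29, against 8, 10 and 9 counts in hs::control) and fbxa-181, and 1, fbxa-184, was higher. In fbxa-75 and fbxa-184 the nearest raw counts of the strains are equal, and only the scaling to library totals parts them.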
